A study of Mus musculus with 577 samples.

Results

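Rac1, Parl, Serf2, Cox6b2, Lsm14b and Trp53bp1 are 6 of the 8 genes, among 22060 protein-coding genes in the tables, whose splice junctions were shown by name in a study of single cells cut from mouse ovarian sections. The other genes shown were H1foo and Oosp1, whose 3′ levels are given beside those of the 6. They were chosen by the study on their junction reads in 5 single oocytes and, for Serf2 and Cox6b2, also in mouse embryonic stem cells (mESCs). The exon and junction reads of the 6 genes in those libraries are therefore given as a description with no test. All 6 genes were found in the exon table and in the 3′-end gene tables.

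The study isolated cells by laser capture microdissection (LCM) from sections and amplified their cDNA. In the protocols it developed, cells were lysed with a detergent that is then quenched (DRaqL). It deposited 577 samples, of which 562 were sequenced at the 3′ ends of transcripts and 15 over the whole cDNA with Y-shaped adapters. Ovaries came from 8-week-old female mice, whose strain the labels do not give, and were frozen, sectioned, fixed in alcohol and stained with cresyl violet, or fixed in formalin for 24 h before staining. The dissociated cells of the same-mouse experiment were instead freed by pipetting, in the presence of a cAMP analog, and were not sectioned. Per the paper, they came from cumulus-oocyte complexes of fully grown follicles, and the mouse of this experiment was in proestrus. mESCs were grown with a GSK inhibitor (CHIR99021), a MEK inhibitor (PD0325901) and LIF, and were taken freshly dissociated or by LCM from frozen, alcohol-fixed cell blocks. In the 3′ libraries made by SC3-seq there were 45 freshly dissociated mESCs and 36 LCM mESCs. The SC3-seq ovarian cells were 31 granulosa cells neighboring the oocyte, 26 non-neighboring granulosa cells, 30 oocytes of secondary to antral follicles and 14 oocytes of primary follicles. Further protocols were SMART-Seq v4 and LCM-seq (both without DRaqL), DRaqL-SMART-Seq v4, formalin-fixed DRaqL-Protease-Smart-seq2 and DRaqL-Smart-seq2. A pair of same-mouse experiments used DRaqL-Smart-seq2 after LCM, and Smart-seq2 without DRaqL after dissociation. Each of these libraries is 1 cell and no label names the mouse or culture behind it, so each group was treated as 1 sample, and the SDs below give the spread between cells.

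In alternative splicing, exons or parts of exons of a gene are joined in different combinations, so that the same gene yields different mRNAs. A growing oocyte transcribes and stores mRNAs that are used after transcription stops, and it is known for splice forms and 3′ ends that differ from those of other cells. mRNAs carrying an early stop codon are commonly destroyed by nonsense-mediated decay.

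Of the 15 Y-adapter libraries, 5 were oocytes of secondary to antral follicles and 10 were mESCs, 5 labelled fresh and 5 labelled LCM. The oocyte libraries held between 392753 and 541064 listed junction reads (median 468655), and the mESC libraries between 535402 (labelled fresh, replicate 3) and 1466404 (labelled LCM, replicate 4). Each of the 5 oocytes ranked its genes most like the 3′ library of the same oocyte name, with a Spearman's rho of 0.890 to 0.919 over 22060 genes. All 10 mESC libraries were nearest to a 3′ library of the other label, with a rho of 0.854 to 0.883, and none was nearest to the library of its own name. The mESCs were therefore pooled as 10 cells, and where a value is given by label it is written as labelled fresh or labelled LCM. All 14 oocyte markers had reads in each oocyte, and all 5 pluripotency markers in each mESC. Reads on the largest exons of the oocyte markers summed to 630964 in the oocytes and 320 in the mESCs.

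Most reads lay on the last exon in 4 of the 6 genes, and fewer in Parl and Cox6b2. In oocytes, 70.3% of the Rac1 exon reads lay on the last exon, as did 35.98% for Parl, 75.2% for Serf2, 33.2% for Cox6b2, 98.96% for Lsm14b and 55.5% for Trp53bp1. In mESCs the same shares were 82.5%, 19.5%, 75.9%, 29.4%, 100% and 64.3%. An exon was called detected above 2 counts per 1000000 (CPM), scaled by TMM (trimmed mean of M-values). By this rule 4 of 6 Rac1 exons were detected in every oocyte, 8 to 10 of 10 for Parl, 3 of 3 for Serf2, 4 of 4 for Cox6b2, 1 to 3 of 9 for Lsm14b, and 4 to 6 of 28 for Trp53bp1. Exons far upstream in Lsm14b and Trp53bp1 were thus hardly seen in either type of cell.

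**Figure D1:**
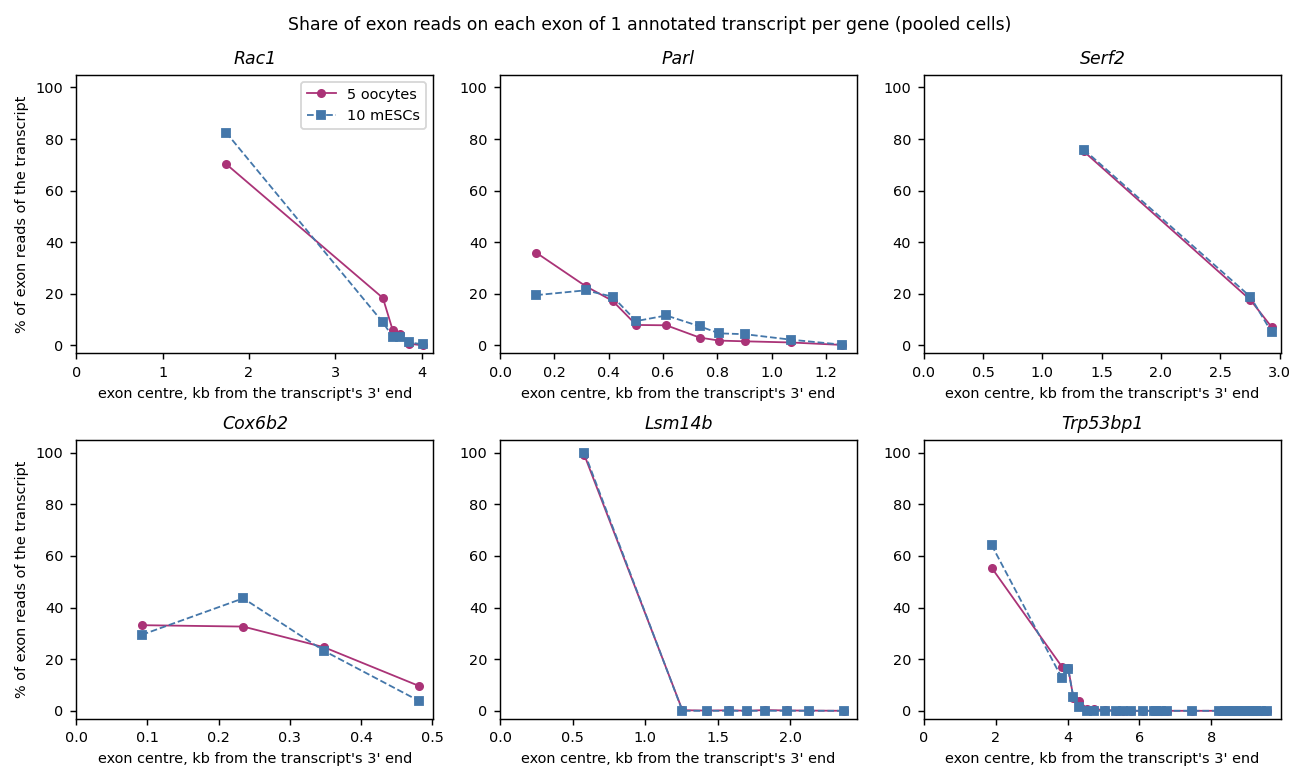
Share of a gene's exon reads on each exon of its main transcript (y axis, percent) against the distance of the exon from the transcript's 3′ end (x axis, kb), 1 panel for each of the 6 genes, with 5 oocytes and 10 mESCs as separate lines or points. Most reads of Lsm14b, Rac1 and Serf2 lie on the last exon in both types of cell, whereas reads of Parl and Cox6b2 reach the other end of the transcript.

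Rac1 encodes a small GTPase that controls actin assembly and membrane ruffling. Its alternative exon 3b lies within the coding sequence at chr5:143509597-143509653 (GRCm38, minus strand) and gives the form known as Rac1b. The exon is shown because reads lay on it in every oocyte and in no mESC. Capitals mark its 57 bases, all of them coding, and lower case the ends of the exons joined to it before and after.
Rac1 exon 3b: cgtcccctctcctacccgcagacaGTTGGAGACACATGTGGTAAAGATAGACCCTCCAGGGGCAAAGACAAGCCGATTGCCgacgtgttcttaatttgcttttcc

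Of the reads on exon 3b or on the next exon, 2 of 51 lay on exon 3b in oocyte 1, 1 of 85 in oocyte 2, 5 of 67 in oocyte 3, 9 of 100 in oocyte 4 and 3 of 61 in oocyte 5. These are shares of 3.92%, 1.18%, 7.46%, 9% and 4.92%, which overlap in their intervals. Pooled, the oocytes had 20 of 364 reads on it, or 5.49% (95% exact Clopper-Pearson interval 3.39% to 8.36%). In the mESCs, 0 of 343 reads did, which allows a share of up to 0.875% (3 reads of 343, the limit used for every count of 0). Among these cells, labelled fresh 3 had no read on either exon and labelled LCM 3 only 3. Such shares are of reads and not corrected for exon length, and the intervals and limits cover counting error only, since the reads carry no molecular identifiers. In the junction table of the mESCs, 169 reads lay on the intron of 6510 bases that skips exon 3b, and no junction into it is listed. Of 449 cassette exons with at least 20 reads on the flanking exons in both types of cell, 1 (0.223%) had reads in all 5 oocytes and none in the 10 mESCs. This was Rac1 exon 3b itself, which was shown for that pattern, so the count is a description and supports nothing.

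The last exon of Rac1 has 2 annotated ends, and its longer form of 3472 bases (chr5:143503634-143507105) holds 3′ untranslated sequence beyond the end of the shorter form of 1624 bases (chr5:143505482-143507105). This stretch was looked at after its values were seen. Of the reads on the longer last exon, the share beyond the shorter end was 17.2%, 23.3%, 25.3%, 16.2% and 17.3% in oocytes 1 to 5. It was 13.9% in mESC labelled fresh 5 and 12.9% in mESC labelled LCM 4, and 0% in the other 8 mESCs. The lowest oocyte, at 16.2%, stood just above the 2 mESCs with reads there. How many other last exons separate the single cells in this way was not counted. Pooled, 787 of 3926 reads lay beyond the shorter end in oocytes, or 20.0% (18.8% to 21.3%), and 231 of 8131 in mESCs, or 2.84% (2.49% to 3.23%). Across 3136 last exons with 2 annotated ends and at least 100 reads in both types of cell, this share was higher in oocytes by 10 percentage points or more in 22.7%, lower by as much in 13.2%, and different by 1.12 points at the median. The Rac1 difference was 17.2 points.

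Scaled to all listed junction reads of a library, Rac1 had 277 to 447 reads per 1000000 in oocytes (median 353) and 4.44 to 151 in mESCs (median 93.99), with no overlap. The tables of oocytes and mESCs list different sets of junctions. Of 5343 genes listed in both, 9.41% had every oocyte above every mESC and 5.3% every oocyte below, a background set after seeing the data, and at the 3′ end mean Rac1 levels of oocytes and mESCs differed by -0.11 on the log2 scale. The oocyte table lists 10 Rac1 junctions without positions, and the largest held 441 reads, or 51.6% of the gene's listed reads. For mESCs 6 junctions are listed, 1 of which, spanning 67757 bases with 3 reads, has neither end on an annotated exon.

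Parl encodes a rhomboid protease of the inner mitochondrial membrane, which cleaves PINK1 and PGAM5 among others. An exon of 49 bases (chr16:20293354-20293402, minus strand) can be extended by 56 bases to chr16:20293298-20293402 by use of a later 5′ splice site. The extended form is annotated as a target of nonsense-mediated decay, since its reading frame meets a TAG stop codon within the extension. Lower case gives the shared exon, and capitals the first 41 bases of the extension.
Parl extension: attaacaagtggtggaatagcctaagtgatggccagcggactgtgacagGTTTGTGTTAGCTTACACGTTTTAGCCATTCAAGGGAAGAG

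In oocytes, 2 of 87, 3 of 100, 13 of 79, 13 of 63 and 17 of 85 reads on the extended exon fell in the extension alone, or 2.30%, 3.00%, 16.5%, 20.6% and 20.0% for oocytes 1 to 5. Oocytes 1 and 2 were low and oocytes 3 to 5 high, and the intervals of the first 2 ended at 8.06% and 8.52%, below those of all 3 others, the lowest of which began at 9.06%. In mESCs, reads in the extension came from 3 cells, with 3 of 18 reads in labelled fresh 3, 4 of 137 in labelled LCM 2 and 1 of 84 in labelled LCM 5. Pooled, the share was 11.6% (8.67% to 15.1%) in oocytes and 1.28% (0.552% to 2.499%) in mESCs. Without labelled fresh 3 the mESC share was 0.821%, and without labelled LCM 2 it was 0.816%. Single cells overlapped, as labelled fresh 3 stood at 16.7%. The same mESCs carried the junction from the extended exon, with 4 of 11, 8 of 99 and 1 of 55 reads at the shared acceptor. Over all mESCs, 13 of 475 reads at that acceptor, or 2.74% (1.47% to 4.63%), came from the extended exon, and 97.3% from the shorter one.

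At the 5′ end of Parl, reads fell on 2 first exons downstream of the main one (chr16:20302209-20302387), at chr16:20301630-20301813 and chr16:20301239-20301329. Of the reads on the 3 first exons, these took 8 of 14 in oocyte 1, 5 of 26 in oocyte 2, 3 of 16 in oocyte 4 and 7 of 10 in oocyte 5. Oocyte 3 had no read on any of the 3. Pooled, this was 23 of 66 reads, or 34.8% (23.5% to 47.6%), and in mESCs 0 of 45, which allows up to 6.67%; all 45 came from mESCs labelled LCM.

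On the same scale, Parl had 1949 to 3728 junction reads per 1000000 in oocytes (median 2315) and 222 to 737 in mESCs (median 471), again without overlap, as for 9.41% of the genes in both tables. Of the 14 junctions listed for oocytes, the largest held 1967 reads, or 33.3%. A further junction held 376 reads, or 6.36%, with 61 or more in each of oocytes 1, 2, 4 and 5 and 0 in oocyte 3.

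**Figure D2:**
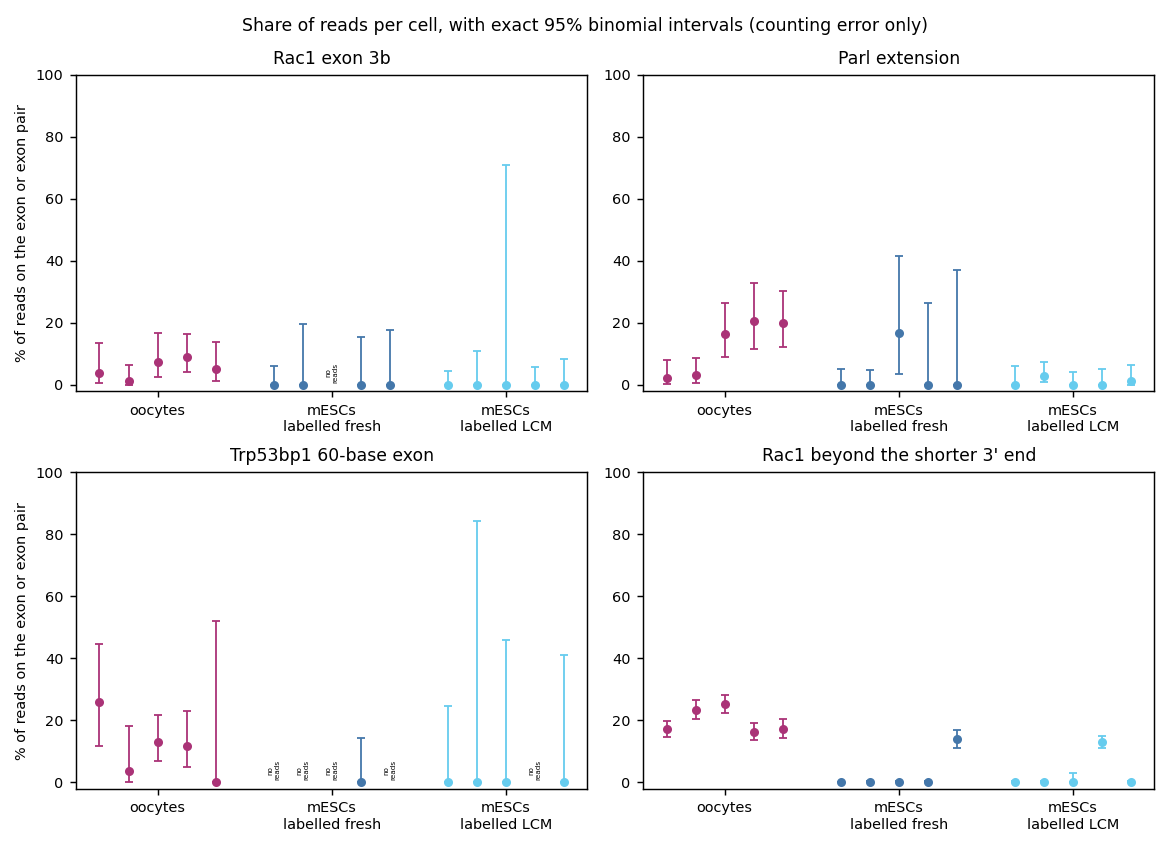
Share of reads (y axis, percent) on 4 alternative stretches, 1 panel each, in every oocyte and mESC (x axis), with exact 95% intervals as bars: Rac1 exon 3b, the Parl extension, the Trp53bp1 exon of 60 bases, and the Rac1 last exon beyond its shorter 3′ end. In the panel of Rac1 exon 3b all oocytes have reads on the exon, and every mESC with a share sits at 0. Labelled fresh 3 had no read there and has no share. In that of the Parl extension, oocytes 3 to 5 stand above oocytes 1 and 2.

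Cox6b2 encodes an isoform of subunit 6B of cytochrome c oxidase, the last complex of the respiratory chain, and is best known from testis. Its first exon took 9.56% of the gene's exon reads in oocytes and 3.74% in mESCs, and was above the detection threshold in 5 oocytes and 1 mESC. The last exon has a longer form of 184 bases and a shorter form of 51 bases, and 28.8% of its reads in oocytes and 7.97% in mESCs lay beyond the shorter end. This is a difference of 20.8 points, beside the 1.12 points at the median of all such exons, and was likewise looked at after its values were seen. The gene had 143 to 237 junction reads per 1000000 in oocytes and 8.87 to 102.7 in mESCs, without overlap, a pattern that 9.41% of the genes in both tables showed. For Cox6b2, 8 junctions are listed in oocytes and 3 in mESCs. The 2 leading junctions in oocytes held 43.7% and 23.9% of the gene's 435 reads, and 3 of the 8 held fewer than 10 reads each.

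Serf2 encodes a small, charged protein that modifies the aggregation of amyloid-forming proteins. At its end the gene runs into Hypk, which encodes a chaperone that binds the N-terminal acetyltransferase, and Serinc4 overlaps it on the other strand. In the mESC table, all 4 junctions listed under Serinc4 have their ends on Serf2 exons, and the junctions listed under Serf2 lie in the stretch shared with Hypk. As no use of strand is stated in the sources used here, reads of these overlapping genes cannot be told apart with certainty. From the donor at chr2:121450083 (plus strand), mESC reads reached 3 acceptors, at 121450588, 121450698 and 121450721. The sequences show how the joined exons differ: lower case is the end of the shared exon, capitals are the first 30 bases after each acceptor.
Serf2 first acceptor: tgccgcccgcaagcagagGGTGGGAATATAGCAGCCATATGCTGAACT
Serf2 middle acceptor: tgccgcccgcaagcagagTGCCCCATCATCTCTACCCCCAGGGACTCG
Serf2 last acceptor: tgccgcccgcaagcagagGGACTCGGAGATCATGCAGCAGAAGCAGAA

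After these acceptors the annotated coding sequence goes on for 10, 283 and 61 bases, so that the 3 forms differ in the end of the protein. Of 1942 mESC reads from this donor, 1803, or 92.8%, used the last acceptor, with 80.0% to 100% in single cells. The middle acceptor took 5.61% of the reads, in 6 of 10 mESCs, and reached 14.7% in labelled LCM 1 and 12.3% in labelled fresh 2. The first acceptor took 30 reads, or 1.54%, of which 29 were in labelled LCM 5 (18.7% of its 155 reads) and 1 in labelled LCM 3. Without labelled LCM 5, the share of the first acceptor fell to 0.0560%. At 66.6% of 1584 mESC splice sites with at least 2 listed junctions and 20 reads, 5% or more of the reads were off the leading junction, a background set after seeing the data, and this Serf2 donor was among them.

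**Figure D3:**
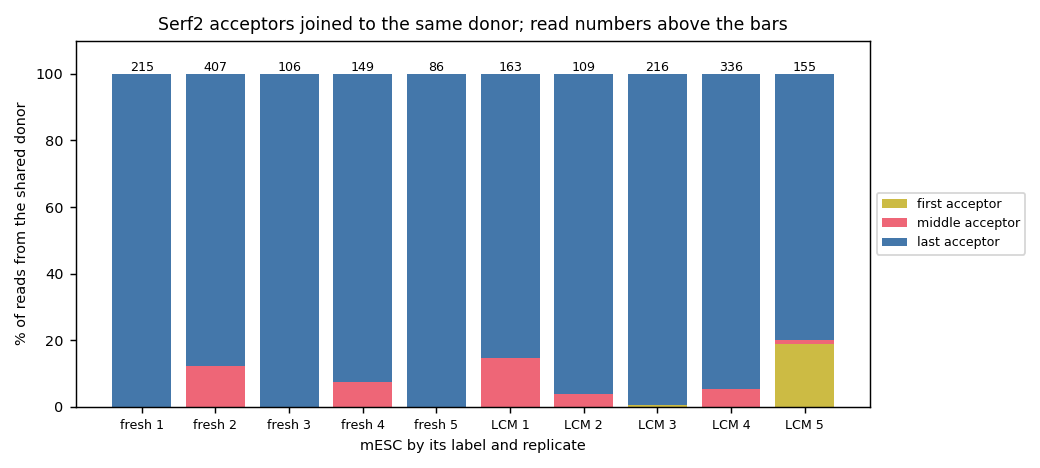
Share of Serf2 junction reads (y axis, percent, bars stacked from 0 to 100) that went from the shared donor to each of 3 acceptors in 10 single mESCs (x axis, by label, with the number of reads). The last acceptor leads in every cell, the middle one appears in 6 cells, and the first one is almost wholly in labelled LCM 5.

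In oocytes, 6 junctions are listed under Serinc4 with no positions, so neither their gene nor these acceptors could be checked there. The largest held 986 reads, or 55.6%, the next 638 reads, and the one after these 6.38% of the reads, spread over all 5 oocytes. Another held 18 reads in oocyte 1 and 14 in oocyte 2, and 0 in the other 3. Together the junctions under Serinc4 had 567.6 to 1158 reads per 1000000 in oocytes, whereas the 4 in mESCs had 205 to 442. These ranges did not overlap, a pattern that 9.41% of the genes in both tables showed. The junctions listed under Serf2 itself had 465.6 to 1815 in oocytes and 150 to 723 in mESCs, which overlapped. That the oocyte junctions under Serinc4 are all of Serf2 was not tested. An exon of Serf2 transcripts that lies in Hypk took 22.8%, 13.9%, 16.5%, 12.3% and 15.7% of the reads on it and on the Serf2 end exon in oocytes 1 to 5, and 7.92% to 29.8% in mESCs. Its pooled share was 17.1% (16.4% to 17.8%) in oocytes and 22.9% (22.3% to 23.6%) in mESCs, and the single cells overlapped.

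Lsm14b encodes an RNA-binding protein of the granules in which oocytes store mRNAs that are not translated. Its alternative exon (chr2:180028958-180029074, plus strand) had 0 reads of 29 on it and the next exon in oocytes, which allows up to 10.3%, and its flanking exons had no read in mESCs. Junction reads were few, with 24 over 6 junctions in the 5 oocytes, 1 to 9 in each, and no Lsm14b junction was listed for mESCs. The use of this exon was therefore not detectable with the reads at this exon. A further alternative exon (chr2:180031794-180031871) had 2 reads, both in 1 oocyte, and none in mESCs. All 52 mESC reads of the gene lay on its last exon.

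Trp53bp1 encodes 53BP1, which binds chromatin around DNA double-strand breaks and favours their joining by non-homologous end joining. An exon of 60 bases at chr2:121203393-121203452 (minus strand) brings a TAG stop codon into the reading frame after 26 coding bases, and transcripts with it are annotated as targets of nonsense-mediated decay. Capitals give its first 50 bases, and lower case the end of the exon before it.
Trp53bp1 exon: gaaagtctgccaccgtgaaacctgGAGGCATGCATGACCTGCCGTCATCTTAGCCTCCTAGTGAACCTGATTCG

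In oocytes, 8 of 31, 1 of 28, 12 of 92, 7 of 59 and 0 of 5 reads on this exon or the next lay on it, or 25.8%, 3.57%, 13.04%, 11.9% and 0% in oocytes 1 to 5. Oocyte 1 was highest, but the intervals of all 5 overlap. Pooled, the share was 28 of 215, or 13.02% (8.83% to 18.3%). In mESCs it was 0 of 52, which allows up to 5.77%, and only 5 of the 10 mESCs had any read there. Trp53bp1 had 113.1 to 334 junction reads per 1000000 in oocytes (median 201) and 0 to 124 in mESCs (median 15.9), so that the highest mESC reached above the lowest oocyte.

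The last exon of Trp53bp1 also has 2 annotated ends, at 3770 bases (chr2:121194838-121198607) and 357 bases (chr2:121198251-121198607), and was looked at after its values were seen. Beyond the shorter end lay 6.53%, 3.64%, 13.4%, 0.345% and 2.65% of its reads in oocytes 1 to 5. In mESCs these were 89.2%, 30.4%, 0%, 24.5% and 0% in those labelled fresh, and 56.5%, 20.0%, 82.6%, 42.5% and 38.8% in those labelled LCM. Except for the 2 mESCs at 0%, every mESC was above every oocyte, and how many other last exons show this was not counted. Pooled, the share was 5.39% (4.57% to 6.31%) in oocytes and 39.6% (37.5% to 41.7%) in mESCs, 34.2 points lower in oocytes and thus opposite to Rac1 and Cox6b2.

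At the 3′ ends, levels were measured as log2 (RPM + 1), where RPM is reads per 1000000 reads on protein-coding genes. SC3-seq oocytes of secondary to antral follicles held a median of 1553490 such reads, oocytes of primary follicles 1498330, neighboring granulosa cells 585673 and non-neighboring ones 544072. For Rac1, the lowest, median and highest cells were 7.44, 7.94 and 8.44 in secondary-antral oocytes, and 4.51, 7.95 and 8.43 in primary oocytes. They were 5.49, 7.99 and 9.84 in fresh mESCs and 4.39, 7.86 and 9.21 in LCM mESCs. Granulosa cells spread from 0 to 10.4 when neighboring (median 6.79) and from 0 to 10.5 when not (median 7.44). The groups overlapped throughout for Rac1, and the range was narrowest in secondary-antral oocytes.

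Parl was highest in oocytes, at 9.12 ± 0.28 (SD, n = 30 cells) in secondary-antral and 8.86 ± 0.60 (n = 14) in primary oocytes. It was 7.55 ± 0.78 (n = 45) in fresh and 7.30 ± 1.07 (n = 36) in LCM mESCs, which reached up to 8.85 and 9.60 and overlapped the oocytes. In granulosa cells Parl was 3.73 ± 3.06 (n = 31) and 2.42 ± 2.72 (n = 26), and it was listed at 0 in 6 of 31 neighboring and 12 of 26 non-neighboring cells.

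Cox6b2 was also highest in oocytes. Its level was 6.48 ± 0.77 in secondary-antral oocytes, 5.38 ± 1.63 in primary oocytes, 4.14 ± 1.32 in fresh mESCs and 4.04 ± 1.47 in LCM mESCs. Neighbors in this order overlapped. In granulosa cells it was 0.60 ± 1.37 when neighboring and 0.80 ± 1.58 when not. Only 7 of 31 neighboring and 7 of 26 non-neighboring granulosa cells had a read, and their highest cells stood at 5.44 and 5.81.

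Serf2 had reads in every cell. Secondary-antral oocytes stood at 9.93 ± 0.17, primary oocytes at 9.60 ± 0.47, neighboring and non-neighboring granulosa cells at 8.94 ± 0.80 and 8.95 ± 0.81, and fresh and LCM mESCs at 7.70 ± 0.94 and 7.88 ± 0.58. It was above all mESCs in 39 of 44 oocytes, and above all granulosa cells in none.

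Lsm14b had the widest spread of group means among the 6 genes, from 0.44 in LCM mESCs to 9.02 in secondary-antral oocytes. Its lowest, median and highest secondary-antral oocytes were at 8.01, 9.04 and 9.65, and its primary oocytes at 6.31, 7.17 and 8.69. Fresh mESCs had a read in 18 of 45 cells and reached 4.55, and LCM mESCs in 15 of 36 and reached 2.88, so that every oocyte was above every mESC. The same held for 1.49% of 13609 genes, H1foo and Oosp1 among them, and the opposite for 0.786%, a background set after seeing the data. Granulosa cells had a read in 15 of 31 and 16 of 26 and reached 6.74 and 9.46. Trp53bp1 was at 7.35 ± 0.71 in secondary-antral oocytes, 5.22 ± 1.46 in primary oocytes, 5.29 ± 1.55 in fresh mESCs, 5.03 ± 1.86 in LCM mESCs, and 3.31 ± 2.98 and 3.03 ± 2.43 in granulosa cells. For this gene the means of primary oocytes and mESCs differed by less than the SD in any of them, and their ranges overlapped.

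**Figure D4:**
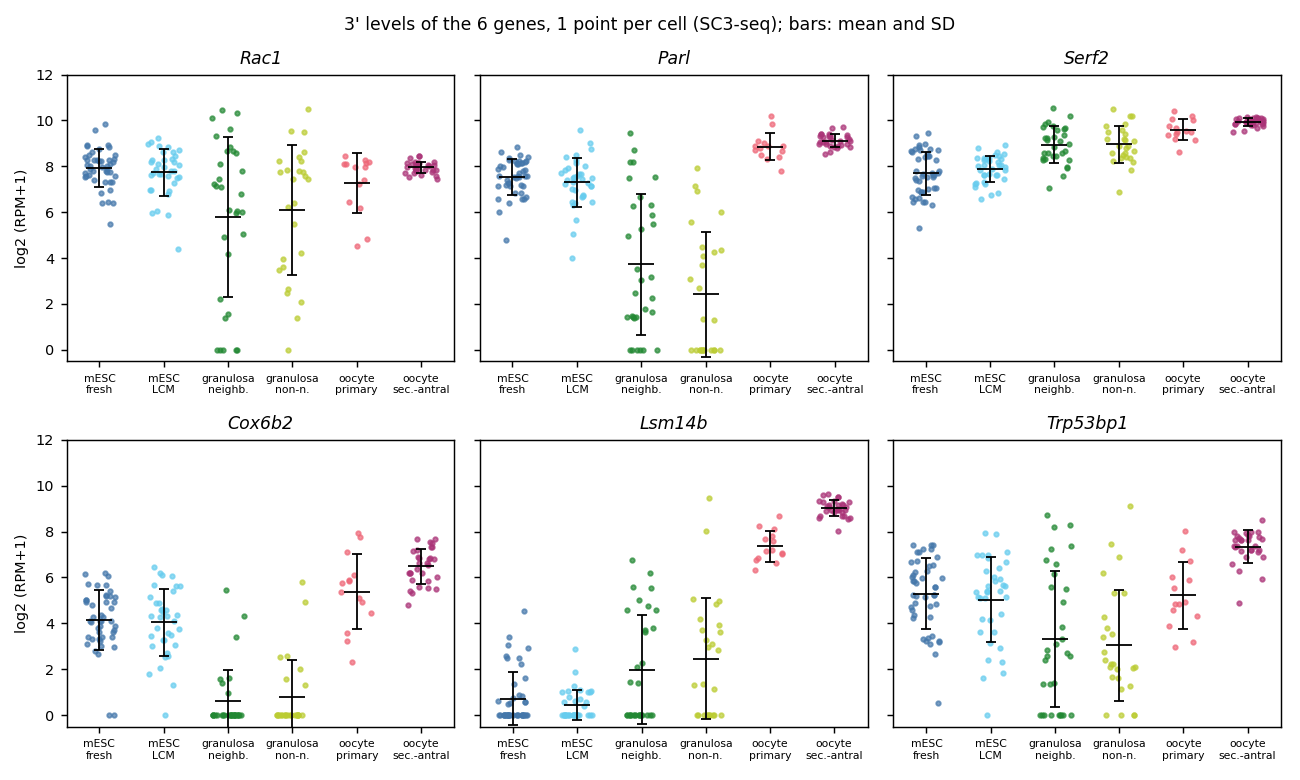
3′ level of each gene in single cells (y axis, log2 (RPM + 1)) in 6 SC3-seq groups (x axis): fresh and LCM mESCs, neighboring and non-neighboring granulosa cells, and secondary-antral and primary oocytes. Points are cells and bars the mean ± SD over cells; for Lsm14b all oocytes lie above all mESCs, and granulosa cells spread down to 0 for every gene except Serf2.

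Between SC3-seq oocytes and granulosa cells (44 and 57 cells), mean levels differed by 1.80 for Rac1, 5.91 for Parl, 5.44 for Cox6b2, 0.88 for Serf2, 6.30 for Lsm14b and 3.48 for Trp53bp1 on the log2 scale, all higher in oocytes. Differences past 2-fold were common, as 71.4% of 13157 genes were higher in oocytes by at least that much and 5.14% lower, and the median of all genes was 1.89. Against this median, Rac1 and Serf2 were at or below the typical gene, and Parl, Cox6b2, Lsm14b and Trp53bp1 above it. The median was 1.73 with TMM scaling and 0.03 with upper-quartile scaling, and with the latter Rac1 stood at -1.29 and Serf2 at -2.46, whereas the other 4 stayed positive at 3.12, 3.35, 3.82 and 0.68. Oocyte markers moved with this contrast inside the granulosa group: 14 of 14 had reads there, their summed level had a median of 2943 RPM in neighboring cells (0 to 17299) and 64.2 RPM in non-neighboring cells (0 to 14355), and Obox1 led in both. Their part in the members' granulosa levels was not tested. The same comparison was made in SMART-Seq v4, DRaqL-SMART-Seq v4, formalin-fixed, same-mouse LCM and same-mouse dissociated cells, where 73.1%, 51%, 53.1%, 63.3% and 61% of genes were higher in oocytes by 2-fold or more and 4.05%, 11.1%, 8.63%, 11.7% and 16.3% lower. Over these 5, the difference ranged from 4.57 to 6.14 for Parl, 2.01 to 5.73 for Cox6b2, 4.18 to 6.14 for Lsm14b and 2.43 to 4.92 for Trp53bp1. It ranged from 0.46 to 2.68 for Rac1 and from -0.22 to 1.44 for Serf2, whose sign was not the same in all. In the dissociated granulosa cells, blood markers had a median of 0 but reached 49954 RPM when neighboring and 12204 RPM when not, led by Hba-a1, against at most 44.7 RPM in the dissociated oocytes. Their part in these differences was not tested.

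Growth of the oocyte was followed by comparing the 30 secondary-antral with the 14 primary SC3-seq oocytes. Trp53bp1 was higher by 2.13, Lsm14b by 1.66 and Cox6b2 by 1.10 in secondary-antral oocytes, all past 2-fold, while Rac1 differed by 0.68, Serf2 by 0.33 and Parl by 0.26. Of all 13686 genes, 32% were higher by 2-fold or more and 14.9% lower, with a median of 0.33. For Lsm14b, 23 of 30 secondary-antral oocytes were above all primary oocytes, and for Trp53bp1 all 30 were above the primary median. Rac1 differed in its mean but not in its median, as 14 of 30 cells were above the primary median. The sum of the granulosa markers moved with this contrast, and 10 of 10 had reads in both stages. Its median was 587 RPM in primary (42.4 to 1553) and 143 RPM in secondary-antral oocytes (54.1 to 1093), led by Inha in both. This sum was also higher in primary oocytes of the other protocols. Its medians were 671 against 389 RPM in SMART-Seq v4, 414 against 223 RPM in DRaqL-SMART-Seq v4 and 1022 against 601 RPM in formalin-fixed sections. Single granulosa markers went both ways by SC3-seq. Inha (8.08 and 6.04), Foxl2, Amhr2 and Kitl had the higher mean in primary oocytes. Nr5a2 (4.26 and 6.10), Fshr, Amh, Hsd17b1 and Fst had it in secondary-antral oocytes, and Inhba was near 0 in both stages. The 5 theca and interstitial markers also had the higher sum in primary oocytes by SC3-seq, led by Ptch1. The median of this sum was 93.1 RPM in primary (1.98 to 273) and 14.3 RPM in secondary-antral oocytes (0.76 to 29.8). Ptch1 was at a mean of 5.57 in primary and 2.82 in secondary-antral oocytes, and Cyp17a1 at 0.42 and 0.05. Cyp11a1 (0.34 and 1.40) and Star (0.16 and 0.70) went the other way, and Lhcgr hardly differed (0.38 and 0.39). In SMART-Seq v4, DRaqL-SMART-Seq v4 and formalin-fixed sections the medians of the sum were 29.7 against 17.1, 40.3 against 11.7 and 124 against 27.3 RPM. Blood markers had a median of 0 in all these groups, but reached 991.5 RPM in DRaqL-SMART-Seq v4 primary oocytes (led by Hba-a1) against 1.07 in secondary-antral ones, and 98.1 against 25.8 RPM in formalin-fixed sections. The part of these markers in the stage differences was not tested.

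The other protocols gave differences of the same direction for Lsm14b and Trp53bp1. Lsm14b was higher by 0.78 in SMART-Seq v4, 1.90 in DRaqL-SMART-Seq v4 and 1.47 in formalin-fixed sections. For Trp53bp1 these were 1.54, 2.61 and 2.19. The genes higher by 2-fold or more made up 33%, 35.2% and 27% of those tested in these protocols, and the genes lower 15.7%, 22.2% and 24.7%. Rac1 differed by 1.10, 3.37 and 0.06. In DRaqL-SMART-Seq v4, 1 of the 6 primary oocytes was at 0 for Rac1 and another for Trp53bp1, and without that oocyte the differences were 2.33 and 1.81. In formalin-fixed sections, Rac1 differed by 1.17 without secondary-antral oocyte 3, which was at 0. Cox6b2 stood at 0.73, -0.13 and 0.50, Parl at 0.43, 0.54 and 0.92, and Serf2 at 0.24, -0.18 and -0.15. Single oocytes moved several of these small values: over leaving out each in turn, Cox6b2 ran from 0.26 to 1.01, -0.36 to 0.12 and 0.10 to 0.80, Parl in SMART-Seq v4 from 0.25 to 0.55, and Serf2 in formalin-fixed sections from -0.45 to 0.06. The lowest Cox6b2 value in SMART-Seq v4 was without primary oocyte 3, and the sign in DRaqL-SMART-Seq v4 turned without primary oocyte 1.

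**Figure D5:**
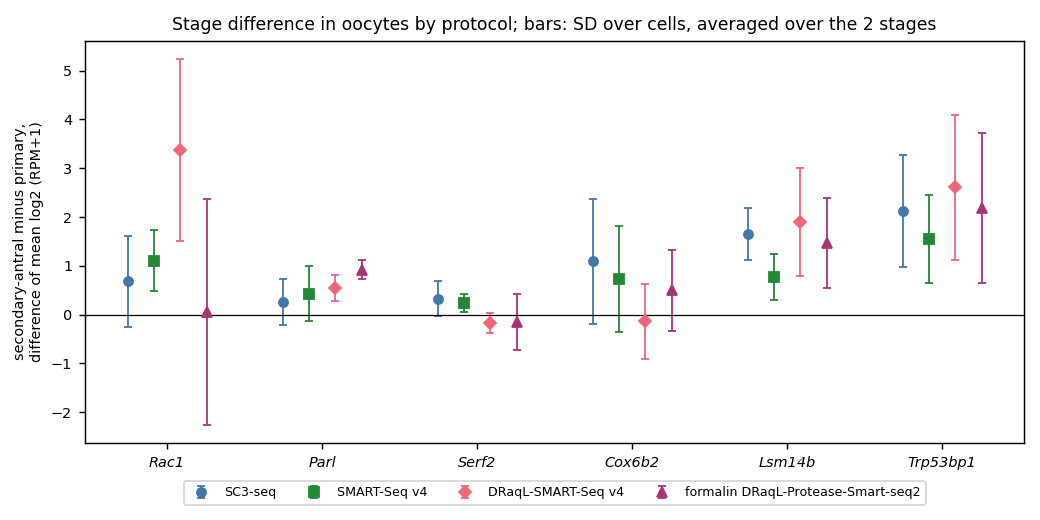
Difference in mean 3′ level between secondary-antral and primary oocytes (y axis, log2 scale) for each of the 6 genes (x axis) by 4 protocols; bars give the SD over cells averaged over the stages. Lsm14b and Trp53bp1 are above 0 in all 4 protocols, and Serf2 and Cox6b2 lie on both sides of 0.

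Between oocytes and mESCs (44 and 81 cells) the differences were 7.91 for Lsm14b, 2.05 for Serf2, 2.03 for Cox6b2, 1.60 for Parl, 1.49 for Trp53bp1 and -0.11 for Rac1, beside 51.2% of 13609 genes higher in oocytes by 2-fold or more, 16.8% lower and a median of 1.05. Between LCM and fresh mESCs all 6 were within 0.27, with Serf2 at 0.18 and the rest from -0.27 to -0.10. The median of all genes was -0.24, with 0.793% of genes higher and 9.17% lower by 2-fold or more and none of the 6 among them. These signs follow the 3′ labels as given, and whether these or the Y-adapter labels are exchanged was not tested. The paper gives a lower mean number of detected genes for LCM than for fresh mESCs. H1foo and Oosp1, oocyte genes profiled beside the 6, stood at 12.4 and 10.5 in secondary-antral oocytes and at 9.49 and 5.07 in primary oocytes.

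Repeat measurements came from 8 oocytes of which 2 serial sections each were sequenced. The median difference between the sections of an oocyte was 0.15 for Rac1, 0.07 for Parl, 0.14 for Serf2, 0.25 for Cox6b2, 0.44 for Lsm14b and 0.41 for Trp53bp1. The SDs over oocytes were 0.25, 0.22, 0.14, 0.56, 0.60 and 0.25. For Trp53bp1 the median difference was above this SD, and for Serf2 near it. The 2 are unlike measures, and the SD also holds part of the difference between sections, so no conclusion is drawn.

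Whether the oocyte's neighborhood goes with different levels was tested in 14 pools, each of 10 granulosa cells, 7 taken next to the oocyte and 7 away from it. In such pools, fewer cells of a type and less RNA per cell cannot be told apart. Rac1 was at 6.10, 7.36 and 8.17 (lowest, median and highest) in neighboring pools and at 5.72, 7.11 and 7.91 in non-neighboring pools. Parl was at 3.70, 6.08 and 8.63 against 3.84, 5.74 and 7.06, and Trp53bp1 at 6.38, 6.92 and 7.92 against 4.33, 5.80 and 8.53. Serf2 was at 9.23, 10.43 and 10.88 against 8.82, 10.17 and 10.42, whereas the other 2 genes reached down to 0. Cox6b2 was at 0, 3.79 and 5.91 against 0, 0.78 and 4.39, with no read in 2 of 7 neighboring and 3 of 7 non-neighboring pools, and Lsm14b at 0, 4.05 and 6.61 against 0.18, 3.11 and 4.73. The groups overlapped for all 6 genes. With edgeR's quasi-likelihood test, log2 fold changes (neighboring minus non-neighboring) were 0.06 (SE 0.48) for Rac1, 0.36 (SE 0.77) for Parl, 0.20 (SE 0.32) for Serf2, 1.27 (SE 1.60) for Cox6b2, 1.12 (SE 1.38) for Lsm14b and 0.12 (SE 0.63) for Trp53bp1. None of the 6 passed a Benjamini-Hochberg adjusted p of 0.05 (edgeR, all 6 at 0.998), none had an unadjusted p under 0.05, and none passed with DESeq2, with which 3.1% of 13421 genes did. With edgeR, 44 of 9704 genes (0.453%) passed, all higher in neighboring pools, whereas with DESeq2 2.27% were higher and 0.835% lower. The edgeR count was 30, 34, 27, 6, 5, 10 and 22 without replicate 1, 2, 3, 4, 5, 6 and 7. It was 3 with the pool number as a replicate block. Of the members, Cox6b2 fell to 0.37 without replicate 1 and Lsm14b to 0.27 without replicate 5, and Cox6b2 did not pass the filter on low counts without replicate 2, 5 or 7. Signs turned for Parl (-0.55 without replicate 5), Rac1 (lowest -0.24, without replicate 3) and Trp53bp1 (lowest -0.15, without replicate 4). Trp53bp1 rose to 0.82 without replicate 1. The 14 oocyte markers had reads in the pools too, with a summed median of 1582 RPM in neighboring and 66.4 RPM in non-neighboring pools, led by H1foo. The 5 theca and interstitial markers had a summed median of 27.2 RPM (1.51 to 324) in neighboring and 233 RPM (17.8 to 2019) in non-neighboring pools, led by Ptch1. The 3 blood markers had a median of 0 in both and reached 16.5 RPM in neighboring and 1700 RPM in non-neighboring pools, where Hbb-bs led, and Hbb-bs and Hba-a1 were at 0 in all neighboring pools. The part of these markers in the members' values was not tested.

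Genes known to work with the 6 were listed, and counted by the same 2-fold rule. Their counts and medians stand beside those of all genes, by RPM. Against granulosa cells 71.4% of all genes were higher, 5.14% lower and the median was 1.89. Against mESCs these were 51.2%, 16.8% and 1.05, and by stage 32%, 14.9% and 0.33. Of the mRNA storage and translation genes that belong with Lsm14b, 10 of 10 were higher in oocytes than in granulosa cells (median 4.10) and 7 of 10 higher in secondary-antral than in primary oocytes (median 2.42), with none lower in either. With upper-quartile scaling, under which the medians of all genes were 0.03 and 0.21, their medians were 1.14 and 2.25. Among them Zar1, needed for the passage from oocyte to embryo, was at 11.6 in secondary-antral and 9.48 in primary oocytes, Btg4, an adaptor for mRNA deadenylation, at 9.84 and 6.48, and Eif4e1b, an oocyte cap-binding protein, at 8.35 and 2.85. Lsm14a, the paralog of Lsm14b, was at 7.54 and 4.86, and at 6.43 in fresh mESCs. Ybx2, a germ-cell mRNA-binding protein, and Ddx6, an RNA helicase, were at 8.19 and 8.66 and at 6.20 and 6.89.

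Of the double-strand break repair genes around Trp53bp1, 7 of 7 tested were higher in oocytes than in granulosa cells (median 3.56), 5 of 7 higher than in mESCs (median 1.52), and 2 of 7 higher in secondary-antral oocytes. With upper-quartile scaling the median against granulosa cells was 1.11, beside 0.03 for all genes. The ubiquitin ligases Rnf8 and Rnf168, which act upstream of 53BP1, were at 7.56 and 7.89 in secondary-antral and 6.06 and 7.07 in primary oocytes, and Rif1, which acts downstream of it, at 8.19 and 7.84. Among 6 partners and substrates of Parl, 6 were higher in oocytes than in granulosa cells (median 2.28), whose direction turned to a median of -0.32 with upper-quartile scaling, and 1 was higher and 1 lower by stage. Stard7, which Parl processes, was at 7.22 and 7.01 in the oocyte stages, and Diablo, whose product is released from mitochondria in apoptosis, was at 5.28 and 6.47. Of 8 cytochrome c oxidase subunits tested, 5 were higher in oocytes than in granulosa cells, a share near that of all genes, and none lower (median 1.43). With upper-quartile scaling their median turned to -1.76, beside 0.03 for all genes. By stage 1 was higher and 1 lower (median -0.48): Cox6a2 was at 2.32 in secondary-antral and 0.11 in primary oocytes, and Cox4i2 at 0.67 and 3.61. Cox6b1, the widely expressed paralog of Cox6b2, was at 7.31 and 8.04.

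Of 4 tested relatives of Rac1, 3 were higher in oocytes than in granulosa cells (median 1.84, but -1.11 with upper-quartile scaling) and 1 by stage. Cdc42 was at 7.79 and 7.65 in the oocyte stages and 8.15 in fresh mESCs, Rhoa at 5.23, 5.53 and 6.48, and Rac3 at 2.99, 1.59 and 1.30. Serf1, a relative of Serf2, and Hypk, which overlaps Serf2 and may share its reads, were both higher in oocytes than in granulosa cells (median 2.47, but -0.19 with upper-quartile scaling) and neither differed by 2-fold by stage. In the oocyte stages Hypk was at 8.19 and 7.69 and Serf1 at 4.22 and 4.50.

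Of 31 splicing regulators tested, 11 were higher and 7 lower in oocytes than in granulosa cells (median 0.14). Their median was -0.07 with TMM and -2.58 with upper-quartile scaling, beside 1.73 and 0.03 for all genes. Against mESCs, 7 were higher and 14 lower (median -0.69), beside 51.2% and 16.8% of all genes. Esrp1, a splicing factor known to act on transcripts of Rac1, Lsm14b and Trp53bp1 in oocytes, was at 9.10 in secondary-antral oocytes, 8.54 in primary oocytes, 1.52 in granulosa cells and 0.56 in fresh mESCs. Its paralog Esrp2 was at 2.85, 2.46, 2.44 and 3.24. Srsf3, a general splicing factor, was at 6.92 and 6.16 in the oocyte stages, 7.77 in granulosa cells and 10.1 in fresh mESCs, and Ptbp1, which mostly represses exons, at 7.05, 5.09, 5.04 and 7.43.

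The genes whose mean levels ran most like those of the 6 over 28 groups of single cells were taken from 11243 genes by Spearman's rho, as a description, since groups share protocols and depths. For Rac1 these were Exosc3, Taf11 and Mad2l1 (0.864 to 0.862), for Parl Asf1b and Ube2t (0.9513 and 0.9502), and for Serf2 Ndufa2, 2410015M20Rik and Atp5j2 (0.933 to 0.914). For Cox6b2 they were Pnpla6, Itpk1 and Xlr4a (0.925 to 0.921), for Lsm14b Gm26919, Nlrp5 and Rimkla (0.936 to 0.918), and for Trp53bp1 Dyrk1a, Ugcg and Diexf (0.917 to 0.905). Among the 6 themselves, Parl and Cox6b2 ran closest, with a rho of 0.856, and Serf2 did not exceed 0.306 with any other.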

How the data were processed

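The authors deposited raw counts per gene, exon and junction, without normalization; columns were matched to sample labels by name, with 0 columns of per-sample values left unused. Per the labels, reads were trimmed with fastp 0.20.0 and cutadapt 1.16, aligned to GRCm38 with HISAT2 2.1.0, and counted with HTSeq 0.10.0 or featureCounts 2.0.1. From these counts, RPM over protein-coding genes was computed, and log2 used a pseudocount of 1. A gene entered a comparison with a mean of at least 1 in either group, and a difference of 1 or more was counted as past 2-fold. Exons were scaled by TMM in edgeR 4.0.16. Positions came from GENCODE M21 (GRCm38). The junction table of oocytes gives no positions, so that the planned shares per splice site in oocytes and their background could not be computed. In the mESC table, 93.0% of 27705 junctions were annotated introns, and 3.41% of these stood under another gene. Pools were tested with glmQLFit and glmQLFTest of edgeR on counts, TMM and filterByExpr, with DESeq2 1.42.0 as an alternative, in R 4.3.3; other values were computed in Python 3.11.15. The edgeR test of the pools was tried on simulated counts. Named genes are the 6 members, H1foo and Oosp1, the 3 genes closest to each member (1 of which is not reported here) and lists of related genes. The members, lists and tests were chosen with earlier results of these data known. No label says that the pools came from separate mice, so their p-values measure only the spread between these samples, which may be technical.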

Additional observations from a re-analysis of the deposited data

Results flagged for a closer look

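In groups of 4 to 10 libraries, a value was marked when its gap to the nearest other exceeded Dixon's 95% critical value, which chance does in about 1 of 20 groups. Of 60 tests, 9 did so. Rac1 was at 0 in DRaqL-SMART-Seq v4 primary oocyte 2 (next 5.07), at 0 in formalin-fixed secondary-antral oocyte 3 (next 6.76), and at 6.82 in same-mouse LCM oocyte 8 (next 7.87). Lsm14b was at 5.71 in DRaqL-SMART-Seq v4 secondary-antral oocyte 2 (next 7.52), at 6.94 in formalin-fixed secondary-antral oocyte 3 (next 8.30), and at 1.29 in bulk granulosa sample 2 (next 3.89). Trp53bp1 was at 0 in DRaqL-SMART-Seq v4 primary oocyte 3 (next 4.27) and at 4.47 in formalin-fixed secondary-antral oocyte 3 (next 7.96). Parl was at 4.03 in bulk granulosa sample 2 (next 5.70). All 9 were low values, formalin-fixed secondary-antral oocyte 3 was marked in 3 genes and bulk granulosa sample 2 in 2.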

How the results depend on the processing

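Of 390 alternative values, 327 were labelled the same, 53 moved and 10 turned. A 3′ level was the same within 1 SD over cells, and turned only from a difference of 1 or more. A pool fold change was the same if its sign and its side of the threshold held, whatever its size. Serf2, oocyte minus granulosa, is thus not among the 10, though it went from 0.88 in SC3-seq to -0.22 in DRaqL-SMART-Seq v4. Rac1, oocyte minus granulosa, turned to -1.29 with upper-quartile scaling and -0.10 as a log2 ratio of summed RPM, and Cox6b2 by stage to -0.13 in DRaqL-SMART-Seq v4. Genes past 2-fold between oocytes and granulosa cells numbered 10067, 6489 with a mean of at least 4 and 5498 with a pseudocount of 10; by stage 6423, 4256 and 3170. In the pools, 44 genes passed with edgeR, 416 with DESeq2, and 3 with the pool number as a replicate block (0 members); leaving out replicates gave 5 to 34. The labels do not say what the pool numbers share. The correlations of same-numbered pools were all above 0, from 0.00593 to 0.188, and 2 of 7 exceeded 0.1. Among its 7 possible partners, the pool of the same number ranked 1 to 3 in every case, and 1 in 3 of 7. These values do not settle whether the pools are paired. The main fit leaves pairing out, and the fit with the block stands beside it. Without single replicates, log2 fold changes ran from -0.24 to 0.29 for Rac1, -0.55 to 0.73 for Parl, 0.14 to 0.23 for Serf2, 0.37 to 1.27 for Cox6b2, 0.27 to 1.41 for Lsm14b and -0.15 to 0.82 for Trp53bp1. The scaling of the gene lists and the leaving out of single oocytes of the other protocols were chosen after seeing the data.

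As shares of all listed reads of the gene, the mESC junctions took 0.303% (Parl, extended exon), 10.8% (Parl, shorter exon), and 0.412%, 1.50% and 24.7% (Serf2, first, middle and last acceptor). The first Serf2 acceptor took 0% in mESCs labelled fresh and 3.06% in those labelled LCM, and the middle one 4.47% as a mean of cells. Leaving out single cells gave 9.42% to 14.3% in oocytes and 0.816% to 1.49% in mESCs for the Parl extension, 1.33% to 3.22% and 96.8% to 98.7% for the Parl junctions, and 0.0560% to 1.95%, 3.84% to 6.32% and 91.95% to 94.2% for Serf2. For the Serf2 exon in Hypk this gave 14.7% to 17.9% in oocytes and 21.9% to 24.1% in mESCs. For the end of Rac1 it gave 18.5% to 20.97% and 1.18% to 3.40%, and for that of Trp53bp1 3.52% to 6.77% and 36.3% to 41.5%. The cause of these shifts was not tested. Shares per splice site in oocytes were not run for want of positions. The fewest reads were at the alternative exon of Lsm14b, with 29 oocyte reads on it and the next exon.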

Other observations

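In neighboring minus non-neighboring single granulosa cells, Lsm14b differed by -0.48 in SC3-seq but was higher in the other 7 protocols, by 0.62 (DRaqL-SMART-Seq v4) to 2.85 (LCM-seq). H1foo, an oocyte-specific linker histone, was higher in neighboring cells in all 8, by 0.75 to 5.58. Trp53bp1 had no common direction, from -2.14 in the same-mouse LCM cells to 0.49 in DRaqL-Smart-seq2. These are differences of means over cells with no test. The summed oocyte markers had the higher median in neighboring cells in all 8, from 157 against 154.6 RPM in the dissociated cells to 2943 against 64.2 RPM in SC3-seq. No dissociated cell was left out for its oocyte markers, which reached 19611 RPM in a neighboring one. Per the study, some dissociated granulosa cells had profiles mixed with those of oocytes, more often when attached to one. Theca and interstitial markers had medians of 8.30 RPM in neighboring and 102.7 RPM in non-neighboring same-mouse LCM cells, 2.98 and 222 RPM in DRaqL-SMART-Seq v4, and 0 and 56.4 RPM in the dissociated cells. In SC3-seq they were 1.74 and 17.7 RPM, and in DRaqL-Smart-seq2 51.4 and 66.6 RPM. They went the other way in SMART-Seq v4 (18.7 and 9.99 RPM) and hardly differed in formalin-fixed sections (187.3 and 185.8 RPM) and LCM-seq (69.2 and 68.4 RPM). The part of these markers in the differences was not tested.

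The study set apart 3 SC3-seq granulosa libraries with a mixed profile, which entered no comparison. In the neighboring one, Cox6b2 was at 5.41, Lsm14b at 6.42 and Rac1 at 6.28. In non-neighboring libraries 1 and 2, Cox6b2 was at 4.37 and 0, Lsm14b at 4.25 and 5.38, and Rac1 at 2.57 and 2.77.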
